A study of Mus musculus with 2 samples.

Results

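DNA replication genes were mostly higher in Nestin+ cells from bone marrow than in those from heart, but by very unequal amounts. The 46 genes encode the proteins that open, copy and close the DNA strands in S phase, and the enzymes that supply deoxynucleotides. They were chosen by name, with earlier results of these data known. Each was found once in both tables, which together list 49492 gene symbols. Of the 46, 45 stood lower in heart and 1, Tyms, stood higher. The difference ran from 26.2-fold for Rrm2, the small subunit of ribonucleotide reductase, to 1.12-fold for Pold3, an accessory subunit of DNA polymerase delta.

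The cells came from C57BL/6 mice at 7 days of age that carry a transgene driving green fluorescent protein from Nestin sequences. Nestin+ cells of bone marrow and of heart were cultured to passage 10, and 1 RNA library was made for each tissue, so the differences lack any check against replicates and could not be tested. The heart medium held 20 ng/ml of both EGF and bFGF, 4 ng/ml of cardiotrophin-1, and N2 and B27 supplements. The bone marrow medium is given in the labels only by reference to an earlier publication, so tissue and medium cannot be told apart. Values are RPKM, reads per kilobase of gene model scaled to the depth of the library, from 53999963 reads in bone marrow and 64872683 in heart, totals recovered from the values themselves. Both libraries carried stromal transcripts, with Col1a1 at 1777 RPKM in bone marrow, against 1751 in heart, and Pdgfrb at 133 and 139. Of 6 stromal markers 3 were at least 2-fold higher in heart: Col3a1, at 129 and 1388 RPKM, Pdgfra, at 11.6 and 27.6, and Nes. The last, which encodes Nestin itself, was at 1.20 RPKM in bone marrow, against 8.74 in heart. All 14 cardiomyocyte, endothelial and blood cell markers stayed below 1 RPKM in both libraries; Nkx2-5, a transcription factor of the cardiac lineage, had 0 in each.

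Replication is prepared in G1, when the origin recognition complex, Cdc6 and Cdt1 load the MCM2-7 helicase onto DNA. In S phase Cdc45 and the GINS complex join the helicase, polymerase alpha-primase lays down primers, and polymerases delta and epsilon extend them, held on the template by the sliding clamp PCNA that replication factor C (RFC) loads. Many of these genes are known targets of E2F transcription factors, which are held back by the retinoblastoma family in resting cells. Their transcripts are most abundant in dividing cells, and in bulk RNA a smaller share of such cells and less transcript per cell cannot be told apart.

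Because many of the members are known E2F targets, their promoters were searched for the E2F consensus. It was written as TTTCCCGC, TTTGGCGC, TTTCGCGC and TTTGCCGC and read on both strands. Promoters of 38 members, 250 bases before to 50 bases after the start site, were present in RefSeq sequence of build GRCm38.p6, and where several were listed the one nearest the start of the gene model was used. Gmnn, Mcm4, Gins1, Gins2, Gins4, Prim2, Pole and Rfc2 had no entry. The stretches below, each 5′ to 3′ on the strand of the gene, are from the member with the most matches in each role group that had any, ties going to the first symbol in the alphabet. Cdc6 was tied with Cdt1 and Orc1, and Pola1 with Pold1, Pold3 and Pole2. Mcm5 was added after its values were seen because it shares an overlapping pair of matches with Mcm6. Capitals mark the E2F matches, some of which overlap. Rfc3 has a further match outside the stretch shown.
Mcm6 (chr1:128359740-128359839, minus strand): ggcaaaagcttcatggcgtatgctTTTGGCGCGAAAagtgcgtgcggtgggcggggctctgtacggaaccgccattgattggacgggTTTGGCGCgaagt
Mcm5 (chr8:75109312-75109411, plus strand): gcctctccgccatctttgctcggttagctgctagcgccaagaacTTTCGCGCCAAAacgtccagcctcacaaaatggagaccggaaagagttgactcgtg
Pola1 (chrX:93632240-93632339, minus strand): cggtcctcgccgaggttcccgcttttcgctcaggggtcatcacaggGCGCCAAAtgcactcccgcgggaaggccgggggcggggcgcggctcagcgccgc
Cdc6 (chr11:98908002-98908031, plus strand): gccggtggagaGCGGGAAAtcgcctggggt
Gins3 (chr8:95633507-95633536, plus strand): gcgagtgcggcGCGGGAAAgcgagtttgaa
Rfc3 (chr5:151651209-151651238, minus strand): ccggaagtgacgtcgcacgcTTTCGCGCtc

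An E2F match was present in 13 of the 38 member promoters (34.2%), against 744 of 32851 promoters of the same length (2.26%), a set with several promoters for some genes. Lig1, Uhrf1 and Dnmt1 had a match only in another listed promoter. Counting any listed promoter, 16 of the 38 members had a match, against 704 of 27025 genes (2.60%). In Mcm6 a pair of matches on opposite strands overlapped, with first bases at -110 and -106 from the start site, and a further match began at -47. Mcm5 held the same kind of overlapping pair at -153 and -149. The promoters used were split only at a log2 ratio of heart over bone marrow of -1, with a pseudocount of 1 RPKM. Matches were present in 7 of 21 members (33.3%) with a log2 ratio of -1 or lower and in 6 of 17 (35.3%) above it. The pseudocount places some members that were more than 2-fold lower in heart by plain RPKM above that line. Of these, Orc1, Cdt1, Gins3 and Pold1 had a match, and Orc6, Rpa2 and Rfc5 had none. The split therefore cannot show whether matches go with the size of the difference. None of the promoters of Rrm2, Rrm1, Tk1, Dut and Tyms held a match. CCAAT was present in 24 member promoters (63.2%) and in 37.4% of all promoters, and the cell cycle element TTTGAA in 5 (13.2%) and in 17.9%. A match describes the letters only and says nothing about binding.

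**Figure D1:**
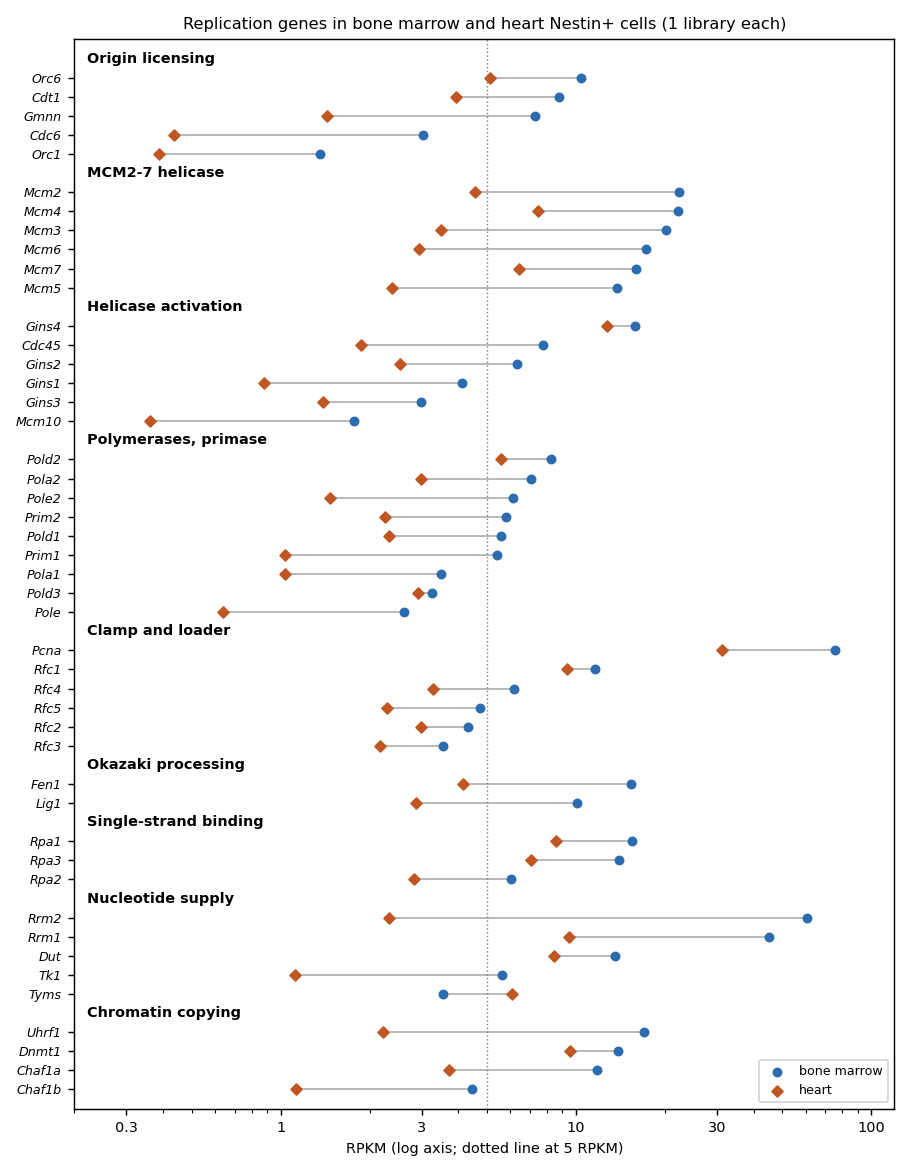
RPKM on a log axis of each of the 46 replication genes in the bone marrow library (circles) and the heart library (diamonds), grouped by role and ordered by the bone marrow level. All genes except Tyms have the diamond to the left of the circle, and the gap is widest for Rrm2 (60.9 against 2.33 RPKM).

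In absolute level the members were modest in both libraries. All 46 reached 1 RPKM in bone marrow and 41 did so in heart, and 33 and 13 reached 5 RPKM. Pcna was the highest in both libraries, at 75.7 RPKM in bone marrow, against 31.2 in heart. It was followed in bone marrow by Rrm2, Rrm1, Mcm2 and Mcm4, and in heart by Gins4, Dnmt1, Rrm1 and Rfc1. The summed level of the 46 genes was 572 RPKM in bone marrow and 2.87-fold lower, 199 RPKM, in heart.

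A gene was counted as higher in a library when log2((heart + 1)/(bone marrow + 1)) on RPKM reached 1 in either direction and the library with the higher level had 5 RPKM or more. All log2 ratios below are on that scale, which understates the difference of low genes, and folds are plain ratios of RPKM. Of the 34 members at 5 RPKM or more in either library, 21 (61.8%) were counted as higher in bone marrow, 0 as higher in heart and 13 as neither. Over all 7659 genes at that level, 9.51% were counted as higher in bone marrow and 7.56% as higher in heart. The members were chosen with earlier results of these data known, so the shares are a description only. The other 12 members were below 5 RPKM in both libraries. With a floor of 1 RPKM, which all 46 members passed, 27 (58.7%) were higher in bone marrow and 0 in heart, against 9.26% and 7.78% of 11355 genes. With a 4-fold threshold and the floor of 5 RPKM, 7 members were higher in bone marrow and 0 in heart, against 2.99% and 3.36% of all genes. The median log2 ratio of the 46 members was -1.10, and that of the 7659 genes was -0.15. Below that general median lay 44 of the 46; Tyms and Pold3 lay above it. Several members lay close to the line: Gins2, Prim2, Pola2 and Mcm10 had log2 ratios between -1.1 and -1.0, and Cdt1, Pold1 and Orc6 between -1.0 and -0.9.

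**Figure D2:**
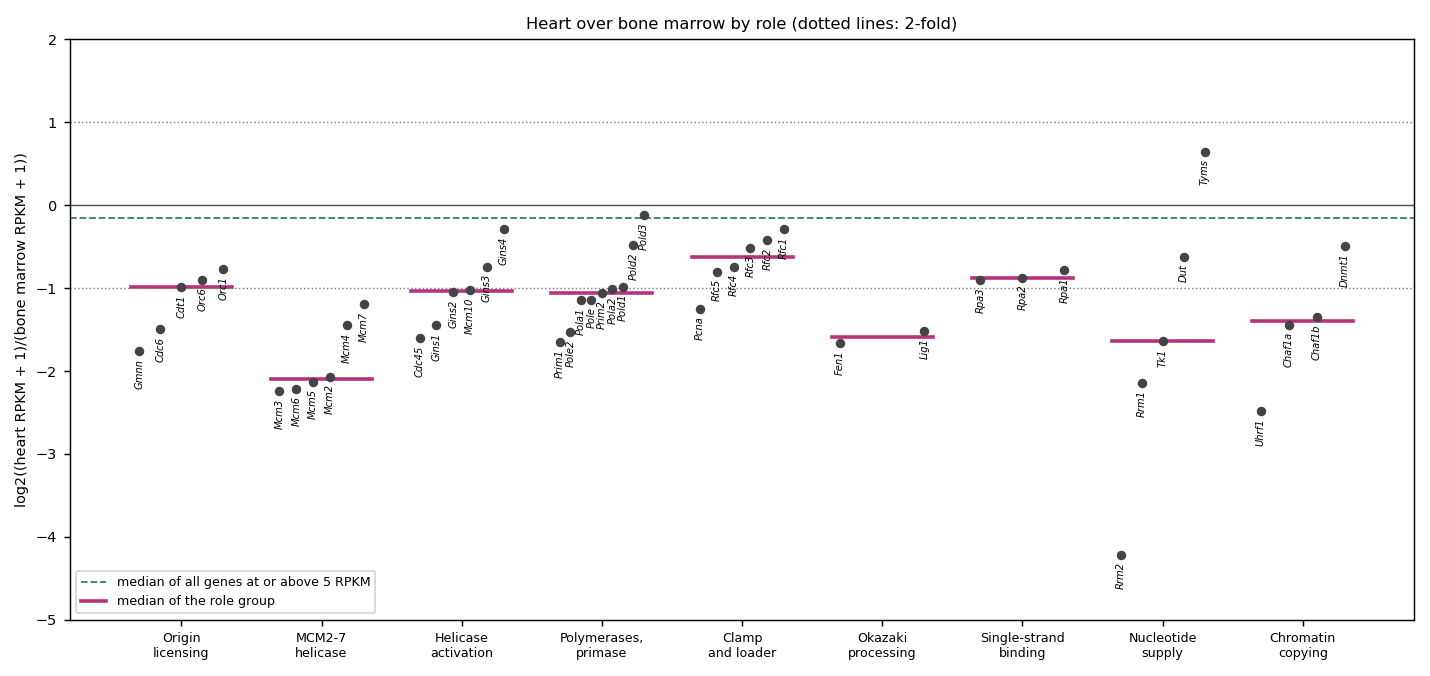
Log2 ratio of heart over bone marrow for each gene, by role, with the median of each role group (thick bars), the median of all genes at or above 5 RPKM (dashed line) and 2-fold differences (dotted lines). The MCM2-7 group has the lowest median, -2.10, and the clamp and clamp loader group the highest, -0.63.

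The licensing genes differed from each other. Cdc6, the ATPase that helps load the helicase, was at 3.05 RPKM in bone marrow, against 0.433 in heart, from 860 and 147 reads. That is a 7.03-fold difference with a 95% counting interval of 5.89 to 8.43, which covers counting error in these 2 libraries only. Its partner Cdt1 stood at 8.79 and 3.93 RPKM, 2.23-fold (2.05 to 2.44). Gmnn, which encodes geminin, the inhibitor that binds Cdt1 and blocks renewed loading, stood at 7.26 and 1.43 RPKM, 5.07-fold (4.20 to 6.16). The intervals of Gmnn and Cdt1 did not overlap, and the level of Gmnn relative to Cdt1 was 0.826 in bone marrow and 0.364 in heart. Orc1, the largest subunit of the origin recognition complex, was the least abundant member in bone marrow, at 1.36 RPKM against 0.385 in heart. Orc6 stood at 10.4 and 5.11 RPKM. The median log2 ratio of these 5 genes was -0.99. It depended on the pseudocount, at -1.59 with 0.1 RPKM and -0.61 with 5 RPKM.

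The remaining subunits of the origin recognition complex were closer together in the 2 libraries. Orc2 was at 9.97 RPKM in bone marrow, against 6.57 in heart and Orc4 at 6.59 and 4.55. The log2 ratios of Orc2, Orc3, Orc4 and Orc5 lay between -0.54 and -0.18, and that of Orc1 was -0.77. As plain ratios, Orc2, Orc3, Orc4 and Orc5 were 1.52-, 1.25-, 1.45- and 1.16-fold lower in heart, and Orc1 3.53-fold (2.76 to 4.56). Orc3 and Orc5 were named after their values were seen.

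All 6 subunits of the MCM2-7 helicase were counted as higher in bone marrow, against 9.51% of all genes at 5 RPKM or more in either library. The 6 subunits lay between 13.8 and 22.3 RPKM in bone marrow. By fold they formed a higher and a lower range. Mcm6 was at 17.3 RPKM in bone marrow, against 2.94 in heart, 5.88-fold (5.47 to 6.32), and Mcm5 at 13.8 and 2.38, 5.81-fold (5.33 to 6.35). Mcm3 and Mcm2 differed 5.82-fold and 4.91-fold, at 20.3 and 22.3 RPKM in bone marrow and 3.48 and 4.54 in heart. Mcm4 stood at 22.1 and 7.45 RPKM, 2.97-fold (2.80 to 3.14), and Mcm7 at 16.0 and 6.44, 2.49-fold (2.36 to 2.64). The counting intervals of Mcm4 and Mcm7 overlapped neither each other nor those of Mcm5 and Mcm6, and Mcm2 and Mcm3 have no interval. Such intervals leave out the spread between cultures.

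The helicase is a ring with each subunit present in equal number, but the transcripts were unequal. No protein was measured, and the shares given are of summed RPKM. In bone marrow the highest subunit stood 1.61-fold above the lowest, and in heart 3.13-fold. Mcm4 made up 19.8% of the summed RPKM of the 6 genes in bone marrow and 27.4% in heart, and Mcm7 14.4% and 23.7%. Mcm7 shares exonic bases of its model with Ap4m1, Cops6 and the microRNA genes Mir25 and Mir93. Of these bases 8.70% are shared with models on the opposite strand and 3.89% with models on the same strand. Part of the reads of Mcm7 may thus belong to other models. Mcm4 shares no exonic base with another model.

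Of the genes that turn the loaded helicase into a moving one, Cdc45 was at 7.75 RPKM in bone marrow, against 1.88 in heart, 4.13-fold. Mcm10, an activator of the helicase, stood at 1.77 and 0.361 RPKM, 4.91-fold (4.16 to 5.81), below the floor of 5. The GINS subunits were not alike. Gins1 stood at 4.12 and 0.874 RPKM, 4.71-fold (3.70 to 6.04). Gins2 stood at 6.33 and 2.54 RPKM, 2.49-fold, and Gins3 at 2.99 and 1.39, 2.15-fold (1.84 to 2.53). Gins4 (GRCm38 chromosome 8, 23226616 to 23237659, minus strand) stood at 15.8 and 12.8 RPKM, from 1154 and 1118 reads, only 1.24-fold (1.14 to 1.35). Gins4 thus made up 54.1% of the summed RPKM of GINS in bone marrow and 72.7% in heart. For Gins2, 67.3% of the exonic bases are shared with Gse1 on the opposite strand, which was at 2.34 RPKM in bone marrow, against 1.84 in heart, and the use of strand in counting is not given in the sources used here. Its part in the value of Gins2 was not tested.

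The polymerase and primase genes covered nearly the whole range between the MCM genes and no difference. Prim1, the catalytic subunit of primase, was at 5.39 RPKM in bone marrow, against 1.03 in heart, 5.22-fold (4.56 to 6.00), while its partner Prim2 stood at 5.78 and 2.26, 2.56-fold. Pola1, the catalytic subunit of polymerase alpha, stood at 3.50 and 1.03 RPKM, 3.38-fold (3.08 to 3.72), and Pola2 at 7.03 and 2.98. Prim1 and Prim2 were near equal in bone marrow, with a ratio of 0.933, and apart in heart, with 0.457. The leading-strand polymerase epsilon showed 4.10-fold for Pole and 4.17-fold for Pole2, at 2.62 and 6.14 RPKM in bone marrow and 0.638 and 1.47 in heart. Of 9 genes in the group, 3 were under the floor and 2 were counted as neither (Pold1 and Pold2). The other 4 (Pola2, Prim1, Prim2 and Pole2) were counted as higher in bone marrow. They were 66.7% of the 6 genes at the floor, against 9.51% of all genes. Pola2 and Prim2 lost the call when the median ratio of genes at 5 RPKM or more in both libraries was set to 0. The median log2 ratio of the 9 genes was -1.06.

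The subunits of polymerase delta, which copies the lagging strand, differed from each other. Pold1, its catalytic subunit, was at 5.57 RPKM in bone marrow, against 2.33 in heart, 2.40-fold (2.19 to 2.62). Pold2 stood at 8.21 and 5.59 RPKM, 1.47-fold (1.33 to 1.63), and Pold3 at 3.24 and 2.91, 1.12-fold (1.01 to 1.23). Pold4, the smallest subunit and not one of the 46 genes, stood at 16.9 and 17.3 RPKM. Pole3, a histone-fold subunit of polymerase epsilon that also belongs to a chromatin remodelling complex, stood at 19.4 and 18.9 RPKM. Pold4 and Pole3 were named after their values were seen. As measured by RPKM, Pold1 was thus further apart between the libraries than Pold2, Pold3 and Pold4. Pole, at 4.10-fold, was further apart than Pole3 and Pole4 (1.95-fold), but not than Pole2, at 4.17-fold.

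The clamp and its loader had the smallest differences by median of any role group, -0.63. Of the 6 genes, Rfc2, Rfc3 and Rfc5 were below 5 RPKM in both libraries and so could not be counted. Pcna (chromosome 2, 132249162 to 132253314, minus strand) was at 75.7 RPKM in bone marrow, against 31.2 in heart, 2.43-fold (2.34 to 2.51). Pcna was the only gene of the other 3 counted as higher in bone marrow (33.3%, against 9.51% of all genes). Its pseudogenes Pcna-ps1 and Pcna-ps2 stood at 0 and 0.265 RPKM in bone marrow and 0 and 0.0858 in heart. Rfc1, the large subunit of the loader, stood at 11.6 and 9.32 RPKM, 1.25-fold (1.19 to 1.30). The small subunits Rfc2, Rfc3, Rfc4 and Rfc5 lay between 3.54 and 6.17 RPKM in bone marrow and between 2.18 and 3.28 in heart, with folds of 1.45, 1.63, 1.88 and 2.07. Rfc1 made up 38.2% of the summed RPKM of RFC in bone marrow and 46.5% in heart. Compared with the helicase, the loader was thus much closer in the 2 libraries: summed over subunits, MCM2-7 differed 4.11-fold and RFC 1.52-fold. Models on the opposite strand share 15.1%, 12.7% and 10.7% of the exonic bases of Rfc2, Rfc4 and Rfc5. Their part in the RFC values was not tested.

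The genes that finish the lagging strand had folds between those of the helicase subunits. Fen1, the nuclease that trims the flap of each Okazaki fragment, was at 15.3 RPKM in bone marrow, against 4.15 in heart, 3.69-fold (3.38 to 4.04). Lig1, the ligase that seals the fragments, stood at 10.1 and 2.88 RPKM, 3.50-fold (3.23 to 3.80). Of the exonic bases of Fen1, 84.2% are shared with the models Gm10143 and Tmem258 on the opposite strand. Tmem258 was at 19.6 RPKM in bone marrow, against 20.6 in heart. Its part in the value of Fen1 was not tested.

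Replication protein A, which coats single-stranded DNA in replication and in repair, was even across its subunits. Rpa1 was at 15.5 RPKM in bone marrow, against 8.59 in heart, Rpa2 at 6.03 and 2.84, and Rpa3 at 14.0 and 7.04. The folds were 1.80, 2.12 and 1.99, and with the pseudocount all 3 log2 ratios stayed under the 2-fold line. Their log2 ratios spanned 0.12, against 1.05 among the MCM subunits and 1.16 among the GINS subunits, and each subunit kept nearly the same share of the summed RPKM in both libraries, with Rpa1 at 43.6% and 46.5%.

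**Figure D3:**
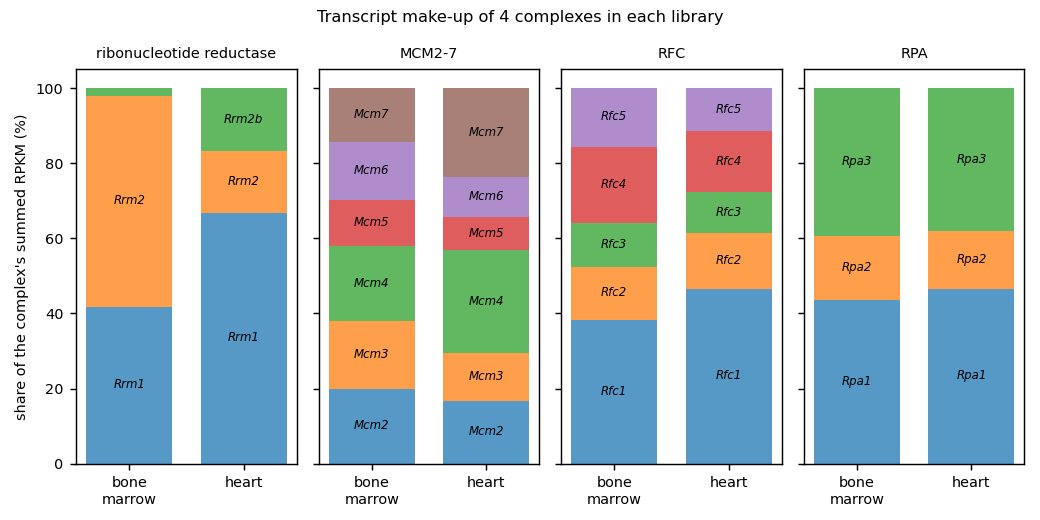
Share of each subunit in the summed RPKM of ribonucleotide reductase, MCM2-7, RFC and RPA in each library (stacked bars, 100% in all). Rrm2 goes from 56.2% in bone marrow to 16.4% in heart, and the RPA bars are nearly alike.

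Nucleotide supply held both the largest and the only opposite difference. Ribonucleotide reductase turns ribonucleotides into deoxyribonucleotides. Its large subunit Rrm1 is paired in S phase with Rrm2, and outside S phase or after DNA damage with Rrm2b, the p53-induced small subunit. Rrm2 (chromosome 12, 24708241 to 24714146, plus strand) was at 60.9 RPKM in bone marrow, against 2.33 in heart, from 9106 and 418 reads. The fold was 26.2 (23.7 to 28.9), and its log2 ratio of -4.22 was the 34th lowest of 7659 genes. Rrm1 stood at 45.3 and 9.45 RPKM, 4.79-fold. Rrm2 was above Rrm1 in bone marrow, with a ratio of 1.34, and below it in heart, with 0.246. Rrm2b, which is not one of the 46 genes and was named after its values were seen, stood at 2.19 and 2.38 RPKM. Rrm2 was thus 27.8-fold above Rrm2b in bone marrow and level with it in heart, with a ratio of 0.977.

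Tyms, which encodes thymidylate synthase, the enzyme that makes dTMP from dUMP, was the exception. It was at 3.55 RPKM in bone marrow, against 6.09 in heart, from 1166 and 2406 reads, so that heart was 1.72-fold higher with a counting interval of 1.60 to 1.84. Its log2 ratio was 0.64, under the 2-fold line. The Tyms model (chromosome 5, 30058202 to 30073617, minus strand) has an exon union of 6089 bases and shares none of them with another model. Which part of the model the reads came from cannot be seen in these values.

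The other genes of thymidine supply were lower in heart. Tk1, the cytosolic thymidine kinase that salvages thymidine, was at 5.63 RPKM in bone marrow, against 1.12 in heart, 5.02-fold (4.49 to 5.63). Dut, which encodes the dUTPase that removes dUTP and yields dUMP, stood at 13.6 and 8.42 RPKM, 1.61-fold. Tyms therefore differed in direction from both of these genes.

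The genes that carry chromatin marks through replication were split. Uhrf1, which recognises newly copied, half-methylated CpG sites and recruits the maintenance methyltransferase, was at 17.0 RPKM in bone marrow, against 2.22 in heart, 7.65-fold (7.02 to 8.34). Dnmt1, that methyltransferase, stood at 13.9 and 9.56 RPKM, 1.45-fold (1.40 to 1.51). The ratio of Uhrf1 to Dnmt1 was 1.22 in bone marrow and 0.232 in heart. Chaf1a and Chaf1b, the large and middle subunits of the histone chaperone CAF-1, differed 3.17-fold and 3.94-fold, at 11.8 and 4.43 RPKM in bone marrow and 3.71 and 1.13 in heart.

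**Figure D4:**
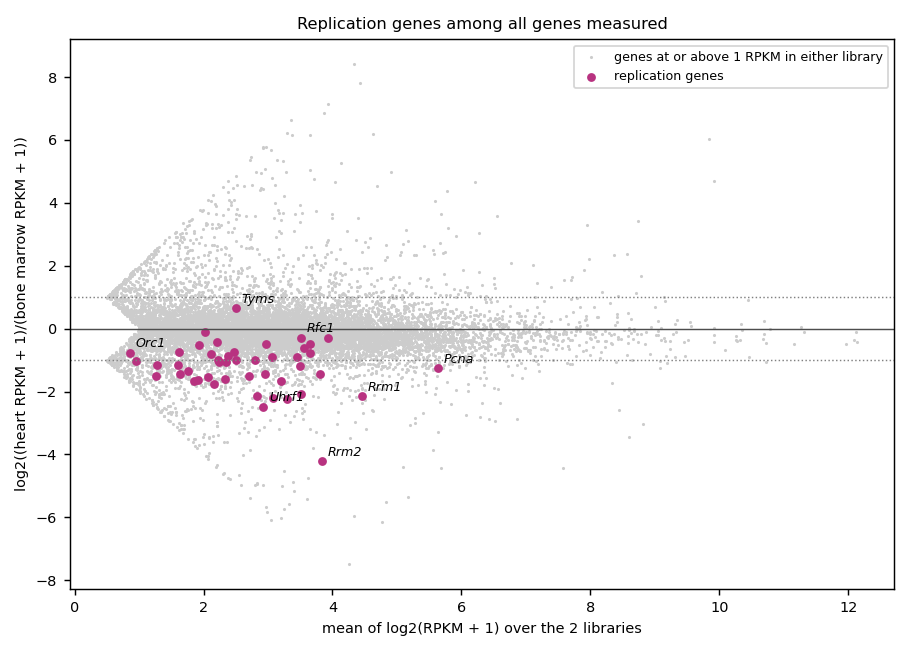
Log2 ratio of heart over bone marrow against the mean log2 level for all genes at or above 1 RPKM in either library (grey) and for the 46 replication genes (coloured). The replication genes lie below 0 except Tyms, and Rrm2 lies lowest among them.

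Other genes of the pathway, outside the 46, leaned the same way but less far. They form 5 lists of 64 genes, also chosen with earlier results of these data known. Of the 64, 40 were at 5 RPKM or more in either library. Of the 40, 12 were counted as higher in bone marrow, 0 as higher in heart and 28 as neither. The 12 of 40 compare with 9.51% of all genes at that level, and the median log2 ratio over the 64 was -0.62. Of 13 licensing and origin firing genes, 7 reached 5 RPKM, and 1 of the 7 (14.3%, near the share of all genes) was counted as higher in bone marrow: Dbf4, the activating subunit of the Cdc7 kinase, at 5.45 and 2.00 RPKM. Topbp1, a scaffold of origin firing, had a log2 ratio of -0.99. Of 15 fork genes 9 reached the floor and 2 of the 9 were counted, Top2a and Tipin. Top2a, the topoisomerase that untangles copied DNA, was at 18.2 RPKM in bone marrow, against 4.58 in heart, and Tipin, a fork protection factor, at 17.5 and 7.51. Pole4, a further subunit of polymerase epsilon, and Ssrp1, a histone chaperone of the fork, had log2 ratios of -0.90 and -0.58. Of 5 alternative clamp loader genes 2 reached the floor and 0 were counted, with Rad17 and Chtf8 at -0.12 and -0.06.

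Genes of nucleotide metabolism, and of histone chaperones and chromatin remodelling, made up the other 9 of the 12. Of 24 nucleotide metabolism genes, 17 reached 5 RPKM and 8 of the 17 (47.1%, against 9.51% of all genes) were counted as higher in bone marrow. The median log2 ratio of the 24 was -0.81. Impdh1, which commits purines to guanine nucleotides, was at 18.7 RPKM in bone marrow, against 5.35 in heart. Mthfd1, a folate enzyme, stood at 22.4 and 6.65, and the deoxynucleotide hydrolase gene Samhd1 at 9.61 and 2.71. Dck, the cytosolic deoxycytidine kinase, stood at 7.76 and 1.96 RPKM. The mitochondrial salvage kinases Dguok and Tk2, named after their values were seen, stood at 6.60 and 4.21 RPKM in bone marrow and 7.34 and 3.57 in heart. The ratio of Tk1 to Tk2 was 1.34 in bone marrow and 0.314 in heart, and that of Dck to Dguok was 1.17 and 0.268. Of 7 histone chaperone and chromatin remodelling genes 5 reached the floor and 1 was counted. This was Hells, a chromatin remodeller of DNA methylation, at 6.42 and 1.23 RPKM. Hat1 had a log2 ratio of -0.84, and Asf1a and Rbbp7 were at -0.18 and -0.17.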

How the data were processed

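Total RNA (1 ug) of cultured Nestin+ cells was made into 1 Illumina library per tissue, per the labels' protocols. The authors deposited RPKM per gene, per the file headers. The submitters' processing notes name build mm8, but 45149 of 49585 rows have the coordinates of a GENCODE M21 model on GRCm38, 43 of the 46 members among them. Aligner, counter and strand setting: not given in the sources used here. Reads of overlapping genes cannot be told apart.

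Multiplied by the exon-union length of the matching model, most values fell on steps of 1 read, from which the total of each library was found. Within 0.02 of a whole read in each library were 86.2% of 14255 rows above 0 and 35 members, the lowest with 86 reads. Those members have a 95% interval of the fold (exact, conditional on the summed reads, Clopper-Pearson). It covers counting error only, since PCR copies of 1 molecule cannot be recognised without molecular identifiers. No count model was applied to such reads. The 11 other members have a fold with no interval.

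The log2 ratio used a pseudocount of 1 RPKM, with no scaling between the libraries. Rows sharing a symbol were represented by the one with the highest mean. With 1 library per tissue no p-value was computed. The members and gene lists were chosen with earlier results of these data known. Named were all members, up to 4 genes of each wider list with the largest log2 ratio in size at or above 5 RPKM, the proliferation genes and cell cycle inhibitors, and the markers. Overlapping genes and pseudogenes are named beside the member they touch. Other genes outside this rule were chosen after their values were seen, and the text says so. Scripts ran in Python 3.11.15 (scipy 1.17.1 for intervals, pandas 2.3.3 and numpy 2.4.6 for tables, matplotlib 3.10.9 for figures) and were tested on simulated data with known totals and folds. Alternatives were other pseudocounts, floors, thresholds and scalings, and the ratio of recovered reads.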

Additional observations from a re-analysis of the deposited data

How the results depend on the processing

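No paired analysis was possible because each tissue has 1 library, and leaving out a replicate was not possible for the same reason. The number of members counted as higher in bone marrow, 21 as reported, was 10 with a pseudocount of 5 RPKM, 6 with a floor of 20 RPKM and 7 with a 4-fold threshold. Under the other alternatives it stayed within 1.5 times. The number higher in heart was 0 and became 1 (Tyms) with a 1.5-fold threshold. The median log2 ratio of the 46 members, -1.10, was -1.44 with a pseudocount of 0.1 RPKM, -0.60 with 5 RPKM and -1.28 over the 35 members with recovered reads and no pseudocount. Setting the median ratio of genes that reach 5 RPKM in each library to 0 multiplies heart RPKM by 1.11 (0.15 on the log2 scale) and gave a median of -1.03 for the members. It ended the call of Gins2, Pola2 and Prim2, as did scaling to the RPKM sum, and a trimmed mean ended that of Gins2 and Pola2. With a pseudocount of 0.1 RPKM Orc6, Cdt1, Pold1 and Rpa2 were also counted as higher in bone marrow. No member changed direction under the pseudocounts, scalings and summed rows tried. Depth limits little here, since the lowest recovered value of a member rests on 86 reads. The spread between cultures of a tissue is unknown.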

Other observations

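Of 18 genes of the E2F network, which controls replication genes, 11 reached 5 RPKM in either library, of which 3 were counted as higher in bone marrow and 0 as higher in heart, against 9.51% and 7.56% of all genes. The median log2 ratio of the 18 was -0.36, against -1.10 for the 46 replication genes and -0.15 for all genes at that level. Ccne2, a cyclin of the entry into S phase, was at 8.03 RPKM in bone marrow, against 1.55 in heart, and Ccna2, the cyclin of S phase itself, at 14.0 and 3.58. E2f6, a repressor of the family, stood at 19.5 and 6.04 RPKM, and Tfdp1, the partner of E2F factors, had a log2 ratio of -0.92. The activators E2f1 and E2f3, named after their values were seen, stood at 12.1 and 5.32 RPKM in bone marrow and 10.1 and 5.60 in heart. The late repressors E2f7 and E2f8, likewise, stood at 1.25 and 1.93 RPKM in bone marrow and 0.127 and 0.374 in heart.

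All 8 genes of the replication checkpoint were lower in heart, but 6 of them were below 5 RPKM in both libraries. Of the other 2, 1 was counted as higher in bone marrow and 0 as higher in heart, against 9.51% and 7.56% of all genes. The median log2 ratio of the 8 was -0.50, against -0.15 for all genes at 5 RPKM or more in either library. Wee1, the kinase that holds back Cdk1, was at 29.4 RPKM in bone marrow, against 7.54 in heart, 3.90-fold, and Rad9a, a subunit of the checkpoint clamp, at 12.0 and 6.54.

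The proliferation genes Mki67, Ccnb1, Cdk1 and Aurkb differed 3.77-, 3.90-, 3.93- and 4.00-fold, at 13.4, 9.71, 18.5 and 5.80 RPKM in bone marrow and 3.55, 2.49, 4.72 and 1.45 in heart. The CDK inhibitor gene Cdkn1a was at 99.6 RPKM in bone marrow, against 43.9 in heart, and Cdkn2a at 0.474 and 58.9. The part of either in the replication genes was not tested.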
